A study of Saccharomyces cerevisiae with 7 samples.

Results

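Messenger RNA recovered with ribosomes that lacked Rps26 was compared with messenger RNA recovered with ribosomes that contained it, within 1 budding yeast strain. The comparison rests on 6 of the 7 libraries of the series, all those of this strain. The strain, of the BY4741 (S288C) background, carries RPS3 and RPS26A each under the GAL1 promoter, has RPS26B deleted, and holds the plasmid pCM189 with Rps3-TAP. Galactose induces GAL1 and glucose represses it, and doxycycline shuts the plasmid's promoter, so the medium decides which Rps3 and whether any Rps26 is made. Cells were grown in galactose medium with 0.2 µg/ml doxycycline, washed, kept for 4 h in glucose medium, treated with 100 µg/ml cycloheximide, which arrests elongating ribosomes, and lysed. Each lysate spent 2 h on IgG beads. Tagged ribosomes released from the beads by TEV protease form the group Minus_Rps26, here called the eluates (3 libraries). Untagged ribosomes that the beads did not take up, collected from a sucrose gradient, form the group Plus_Rps26, here called the flowthroughs (3 libraries). The protocol takes an eluate and a flowthrough from 1 culture. Libraries were matched by the replicate number in their titles, although the description of flowthrough 2 numbers it 1. Each pair matched in this way is also described alone. Rps26 content, the age of the ribosome, the tag and the way of purification all change together between the groups and cannot be told apart.

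Rps26 is a small-subunit ribosomal protein at the mRNA exit channel, where the stretch of mRNA just before the start codon lies during initiation. Yeast encodes it in 2 genes, RPS26A and RPS26B, and a dedicated chaperone, Tsr2, delivers it to the 40S subunit. The bases before a start codon, called the Kozak context, affect how often ribosomes begin there; in yeast an A at position -3 is the most frequent base. The title of the study ties Rps26 to that context, and the comparison asks which mRNAs are held by each class of ribosome. Each library measures a messenger's share of the RNA in its eluate or flowthrough. Small nuclear RNAs took from 0.326% (eluate 3) to 11.3% (flowthrough 3) of the counts. Small nucleolar RNAs took from 1.13% to 10.3% in the same libraries. How much of the RNA was bound to ribosomes was not measured. The level of a messenger in the cell was not measured in these libraries either. A change in its bound share and a change in the messenger itself therefore cannot be told apart.

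Counts over annotated features ranged from 9605899 to 21405499 per library. Replicate pair 1 stood apart from the other two. Over 5534 nuclear protein-coding genes, eluate 1 and flowthrough 1 were the most alike of all 15 pairs of libraries, with an SD of the log2 difference of 0.421. Flowthrough 1 differed by an SD of 0.768 and 0.864 from flowthroughs 2 and 3, which differed by 0.521 from each other. Flowthrough 1 also held 92.7% of its counts in nuclear protein-coding genes, near the 92.4% to 98.0% of the eluates, against 82.2% and 72.9% in flowthroughs 2 and 3. Results are therefore given pair by pair as well as over all 6 libraries. The engineered genes were read first. RPS26A stood at 48.0, 27.5 and 37.9 CPM (counts per library scaled by trimmed means) in eluates 1 to 3 and at 52.2, 121 and 105 CPM in flowthroughs 1 to 3, lower in the eluates by 1.30 ± 0.35 on the log2 scale (SE; edgeR quasi-likelihood test, adjusted p = 0.0392). In pair 1 it was nearly equal. Whether the ribosomes held the Rps26 protein was not measured in these libraries. RPS26B, the deleted gene, lay between 0.599 and 1.25 CPM in 5 libraries and at 16.5 CPM in flowthrough 2. RPS3, whose reads can come from the chromosomal and the plasmid copy, stood at 1577, 3854 and 2255 CPM in the eluates and at 377, 6873 and 9060 CPM in the flowthroughs, with no call (adjusted p = 0.351). URA3, a gene of uracil synthesis and the marker of pCM189, stood at 74.8, 33.2 and 61.1 CPM in the eluates and at 27.4, 50.6 and 114 CPM in the flowthroughs, also with no call (adjusted p = 0.812). RPS3 and URA3 were both higher in the eluate of pair 1 and lower in the eluates of pairs 2 and 3.

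Many messengers of very large proteins were higher in the eluates of Rps26-lacking ribosomes, and many messengers of ribosomal proteins and other short proteins were lower. Small structural RNAs were lower there in pairs 2 and 3, but most classes of them were higher by their median in pair 1. Of 5668 features tested over all 6 libraries, 907 (16%) changed at an adjusted p of 0.05, 459 of them higher (8.1%) and 448 lower (7.9%) in the eluates, by edgeR's quasi-likelihood test. Among the higher features 458 were nuclear protein-coding genes and 1 was a pseudogene. Among the lower features 418 were nuclear protein-coding genes, 20 were small nucleolar RNAs, 4 were spliceosomal small nuclear RNAs, and the RNAs of RNase P, RNase MRP, telomerase and the signal recognition particle were 1 each. With the replicate number as a block, which the shared lysate calls for, no feature passed (0 of 5668; 1990 at an unadjusted p under 0.05), and each of the 20 genes named below by their pair ratios had an adjusted p of 0.117 in that fit. Their fold changes hardly moved under the block: MDN1 had a log2 value of 1.48 against 1.49, BNI1 1.72 against 1.78 and FPR1 -1.16 in both. The calls rest on pairs 2 and 3: without pair 1 there were 2671, and without pair 2 or pair 3 there were 0. Leaving out single libraries gave 214 calls without eluate 1, 2495 without flowthrough 1 and 0 without any of the other 4. Scaling to total counts alone moved the median log2 fold change of all features from 0.03 to 0.75 and the calls to 1042 higher and 37 lower, so directions here are relative to the bulk of features under trimmed-mean scaling.

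The direction of the calls was then read pair by pair. Of the 459 higher features 458 were above 0 in all 3 pairs, and 409 of the 448 lower features were below 0 in all 3. The calls come from the same libraries as the pair ratios, so this agreement is partly built in. Over all 5668 features, 1731 (30.5%) were above 0 in every pair and 1570 (27.7%) below 0 in every pair. Libraries of the groups did not overlap for 1193 features higher (21%) and 983 lower (17.3%), called or not. Pair 1 showed smaller ratios throughout: in 880 of the 907 called features its ratio was nearer 0 than those of both other pairs. The called higher genes had median log2 ratios of 0.58, 1.36 and 1.84 in pairs 1, 2 and 3. The called lower features had -0.43, -1.72 and -1.99.

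**Figure D1:**
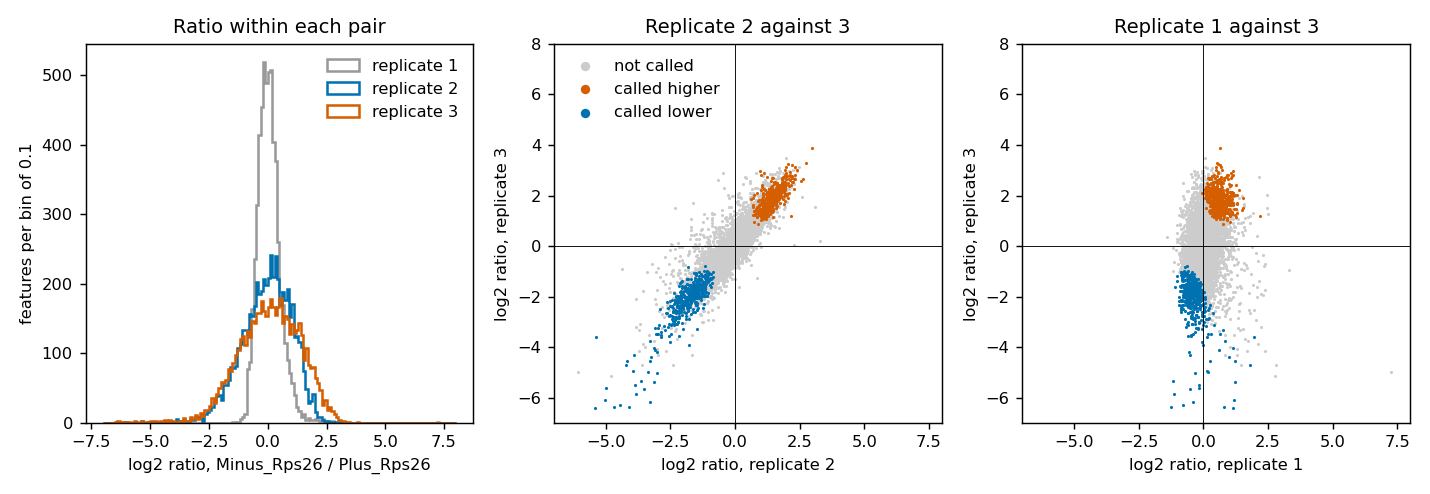
The left panel counts features by log2 ratio of eluate over flowthrough, in bins of 0.1, for each replicate pair; the SD of the ratio is 0.488 in pair 1, 1.06 in pair 2 and 1.31 in pair 3. The other panels plot the ratio of pair 2 or of pair 1 against that of pair 3, 1 dot a feature, coloured by its call over all 6 libraries (orange higher, blue lower, grey not called); the cloud is narrow for pairs 2 and 3 and broad for pairs 1 and 3.

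Taken alone, pair 1 had 202 features (3.56%) at a log2 ratio of 1 or more and 15 (0.265%) at -1 or less. Pair 2 had 916 (16.2%) and 1044 (18.4%), and pair 3 had 1432 (25.3%) and 1185 (20.9%). Across the 5668 features the ratios of pairs 2 and 3 correlated at r = 0.913, those of pairs 1 and 2 at 0.182 and those of pairs 1 and 3 at 0.237. These values describe features, which are not independent replicates, and each pair has its own libraries. A further pair of patterns was common: 819 features (14.4%) were higher in the eluate of pair 1 and lower in those of pairs 2 and 3, and 911 (16.1%) were the other way round. Small nucleolar RNAs were of the first kind by their medians. The 65 tested had median log2 ratios of 0.82, -2.51 and -2.58 in pairs 1, 2 and 3. The 10 mitochondrial genes tested had 1.61, -3.25 and -4.24. The rDNA spacer feature NTS1-2 was the extreme case, with 5849, 75 and 27 counts in eluates 1 to 3 and 25, 2028 and 298 counts in flowthroughs 1 to 3. RNA of these classes thus lay on opposite sides of the comparison in different pairs. With these RNAs left out, in a fit to nuclear protein-coding genes alone, 1136 genes were called. They included 876 of the 907 features called above. Those 876 were all the nuclear protein-coding genes among the 907 (458 higher and 418 lower). Any further part of these RNAs in the calls was not tested.

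Genes with the same direction and a large ratio in every pair came next. Called nuclear protein-coding genes were eligible when their mean reached 10 CPM and the groups did not overlap, which left 454 higher and 379 lower. The gap between the groups in these genes was thus asked for by the rule. The 10 whose smallest ratio over the 3 pairs was highest and the 10 whose largest ratio was lowest are named; the coordinates are those of sacCer3 (assembly R64). The 10 higher ones were MDN1, BNI1, IRA1, TOR2, YNR065C, DYN1, CSF1, SSK2, SEN1 and IRA2. Their coding lengths ran from 3351 to 14733 bases, against a median of 1242 bases for the genes of the whole comparison.

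MDN1 (chromosome XII, 349006 to 363738) encodes midasin, the giant ATPase that strips assembly factors from pre-60S particles, and is the longest gene of those tested. It stood at 497, 367 and 805 CPM in eluates 1 to 3 and at 173, 138 and 281 CPM in flowthroughs 1 to 3. Its log2 ratios of 1.52, 1.42 and 1.52 were close in all 3 pairs. The fold was 2.82 (log2 1.49 ± 0.38, adjusted p = 0.0365). BNI1 (chromosome XIV, 129522 to 135383) encodes a formin that nucleates actin cables. It stood at 123, 118 and 216 CPM in the eluates and 47.4, 40.2 and 45.8 CPM in the flowthroughs. Every eluate held more than double the CPM of the highest flowthrough, and the fold was 3.42 (log2 1.78 ± 0.31, adjusted p = 0.0357).

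IRA1 and IRA2 encode the pair of GTPase-activating proteins that turn off Ras and so lower cyclic AMP signalling. IRA1 (chromosome II, 517350 to 526628) stood at 139, 173 and 310 CPM in the eluates and at 55.9, 67.7 and 76.1 CPM in the flowthroughs (3.12-fold, log2 1.64 ± 0.34, adjusted p = 0.0357). IRA2 (chromosome XV, 171070 to 180309), the more abundant of the pair, stood at 266, 292 and 544 CPM in the eluates and at 110, 133 and 195 CPM in the flowthroughs (2.51-fold, log2 1.33 ± 0.36, adjusted p = 0.0385). In both genes eluate 3 was the highest library. TOR2, the kinase at the heart of TOR complex 2, which also works in complex 1, stood at 121, 168 and 273 CPM against 49.3, 67.0 and 82.7 CPM (2.83-fold). DYN1, the heavy chain of the dynein motor that positions the nucleus, stood at 142, 133 and 295 CPM against 49.2, 56.4 and 77.9 CPM (3.11-fold). SEN1, the RNA and DNA helicase that ends transcription of short non-coding genes, stood at 104, 132 and 240 CPM against 47.6, 39.5 and 56.1 CPM (3.33-fold). For all 3 genes eluate 3 was again the highest library. SSK2, a MAP kinase kinase kinase of the osmotic stress pathway, had close ratios of 1.25, 1.18 and 1.17 in the 3 pairs and a fold of 2.29. CSF1, a large protein of membrane lipid transport, and YNR065C, a relative of the sorting receptor Vps10, were 3.20-fold and 2.44-fold higher.

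The 10 lower genes were SHU1, FPR1, TRX1, RPS27B, RPS28A, ERG2, RPL37A, DUT1, RPL27A and TFB5. FPR1 (chromosome XIV, 371882 to 372226) encodes the proline isomerase that binds rapamycin. It stood at 436, 456 and 395 CPM in the eluates and at 896, 1081 and 906 CPM in the flowthroughs. Both groups were tight, and the fold was 2.24 lower in the eluates (log2 -1.16 ± 0.28, adjusted p = 0.0357). TRX1 (chromosome XII, 231702 to 232013), a cytosolic thioredoxin, stood at 140, 206 and 118 CPM in the eluates and at 287, 580 and 305 CPM in the flowthroughs (2.52-fold lower, log2 -1.34 ± 0.36, adjusted p = 0.0380). SHU1 stood at 6.03, 8.72 and 6.34 CPM against 12.9, 26.0 and 19.9 CPM (2.78-fold lower). It is the least abundant of the 10.

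4 of the 10 encode ribosomal proteins, from gene pairs whose near-identical copies can exchange reads. RPS27B stood at 963, 1175 and 955 CPM in the eluates and at 1870, 4239 and 4841 CPM in the flowthroughs, and RPS28A at 1007, 1162 and 726 CPM against 1929, 5207 and 3273 CPM. RPL37A stood at 1221, 999 and 811 CPM in the eluates and at 2270, 4208 and 2769 CPM in the flowthroughs, and RPL27A at 1512, 1659 and 1219 CPM against 2793, 4060 and 3742 CPM. In all 4 the eluates varied less than the flowthroughs, and flowthrough 1 was the lowest flowthrough. The folds ran from 2.41 lower for RPL27A to 3.60 lower for RPS28A. ERG2, the sterol isomerase of ergosterol synthesis, stood at 69.0, 104 and 66.0 CPM against 132, 289 and 267 CPM (2.88-fold lower). DUT1, the dUTPase that keeps uracil out of DNA, and TFB5, the smallest subunit of the repair and transcription factor TFIIH, were 2.55-fold and 3.50-fold lower.

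**Figure D2:**
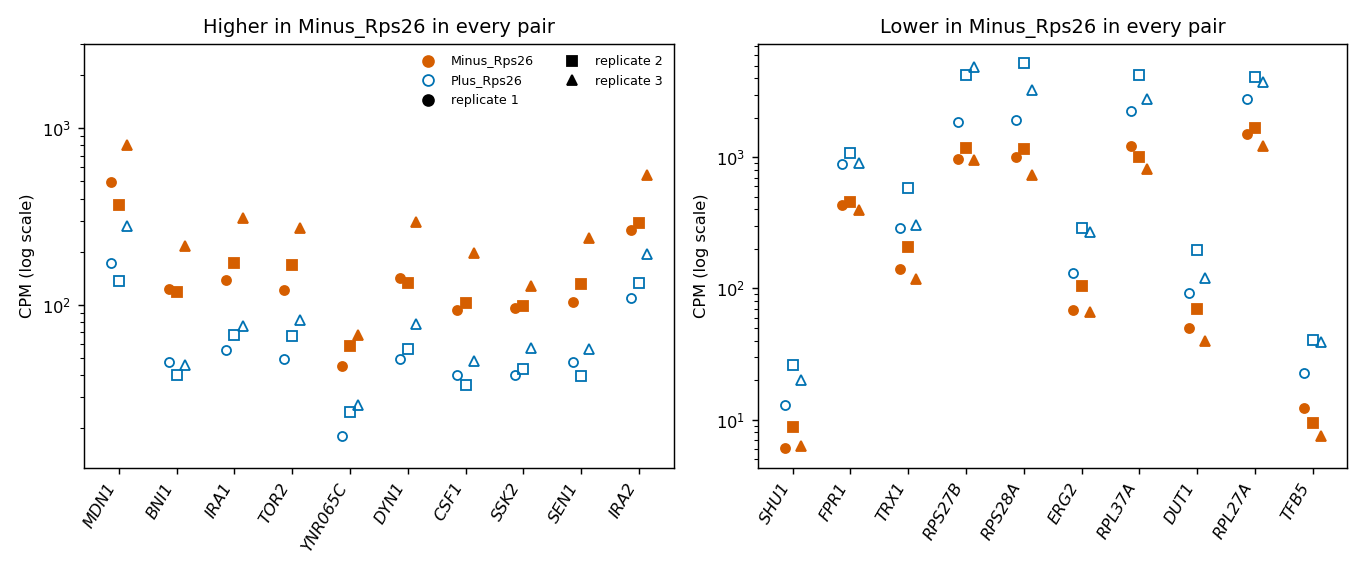
CPM on a log scale in each of the 6 libraries for the 10 higher and the 10 lower genes named by their pair ratios; filled orange marks are eluates, open blue marks flowthroughs, and circle, square and triangle are replicates 1, 2 and 3. The genes were chosen for groups that do not overlap. The eluates of MDN1 lie at 367 to 805 CPM, above its flowthroughs, and those of FPR1 at 395 to 456 CPM, below its flowthroughs.

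The stretch of each messenger that lies at the exit channel during initiation is shown for 12 of these genes, since it is where Rps26 sits. The sequences are the 20 bases before the start codon on the coding strand, 5′ to 3′, from the authors' deposited table, with positions -4 to -1 in capitals. The first 6 are the first higher genes and the next 6 the first lower genes.
MDN1: accgttataatctgctGAGA
BNI1: aaggaagagaaggaaaGGAA
IRA1: agattaaggctctttcTAAA
TOR2: ttactttccccatatgAAAA
YNR065C: caaatcctactgccggAATT
DYN1: gtcaaaacgttttttaGGCA
SHU1: cagcagcagcaggataCAAT
FPR1: atcaatcaaaacaagtAATA
TRX1: tagacacctcgatacaAATA
RPS27B: tgcatatatattagatCAAT
RPS28A: agaaaaccaagctagcAATC
ERG2: tagcccagaccattatAGCC
An A stood at -3 in 7 of the 10 higher and 8 of the 10 lower genes of the rule, as against 61.2% of the 5520 tested genes whose 20 bases were given. Over all called genes the shares lay further apart: 56.4% of 456 higher genes and 73.7% of 418 lower genes had A at -3. At -1 A stood in 39.5% of the higher and 54.8% of the lower genes, against 44.3% of all, and at -4 in 39.0% and 50.0%, against 43.8%. G at -4, the base of MDN1, BNI1 and DYN1, stood in 16.7% of the higher and 11% of the lower genes, against 14.9% of all. Over 5 equal classes of coding length the share with A at -3 was 63.1%, 62.9%, 61.3% and 62.7% in the first 4 and 55.8% in the longest. The longest class holds 406 of the 456 higher genes, of which 56.4% had A at -3, close to the whole class. Within the shortest class it was 71.0% among 248 lower genes, and in the next class 77.1% among 144. These shares are descriptions, and no test of them was made.

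A stricter look took the features past a 2-fold ratio in all 3 pairs, whether called or not. There were 45 higher (0.794%) and 6 lower (0.106%). All 45 were nuclear protein-coding genes, with a median coding length of 4971 bases and a shortest of 903. By role, and named after their values were seen, they include 4 genes of phosphoinositide-kinase-like proteins, TOR2, TRA1, TEL1 and MEC1 (TOR1, of the same family, was not among the 45), the formins BNI1 and BNR1, the ubiquitin ligases TOM1 and UBR1, the DNA repair genes RAD2, RAD4 and RAD50, the condensin subunit SMC2, and the Snf2-family ATPases INO80 and MOT1. SSA3, a stress-induced Hsp70, and PDR12, a pump for weak acids, are the only 2 of the 45 that were not called (adjusted p = 0.0556 and 0.0593). The 6 lower features were FPR1, TRX1 and SHU1 and 3 structural RNAs.

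These RNAs carry no coding sequence. SCR1, the RNA of the signal recognition particle, which binds ribosomes as they make secreted proteins, stood at 13704, 4824 and 1368 CPM in eluates 1 to 3 and at 29778, 68175 and 78649 CPM in flowthroughs 1 to 3. The eluates lay below every flowthrough, and the log2 ratios were -1.12, -3.82 and -5.85. snR42, a small nucleolar RNA that guides pseudouridylation, stood at 210, 184 and 104 CPM against 474, 2315 and 4164 CPM. snR84, another such guide, stood at 240, 124 and 46.7 CPM against 578, 2107 and 3854 CPM. Both lay below their flowthrough in pair 1 as well, where the median of the small nucleolar RNAs was 0.82.

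The genes that most opposed each other between pairs are given as a description. None of the 8 was called by edgeR (1 at an unadjusted p under 0.05), while the authors' deposited table lists GPI1 and COS12 at an adjusted p of 0.0207 and 0.0441. GEF1, a chloride transporter of the Golgi and vacuole, stood at 62.9, 55.1 and 88.0 CPM in the eluates and at 25.2, 112 and 197 CPM in the flowthroughs. Its log2 ratios were 1.32, -1.02 and -1.16. GPI1, of the first step of GPI anchor synthesis, had 0.99, -2.18 and -2.05, MEP1, an ammonium permease, 0.88, -1.02 and -0.80, and COS12, of a subtelomeric family, 0.79, -1.61 and -1.9. In the opposite sense, NSP1, a nuclear pore protein that lines the central channel, stood at 145, 254 and 244 CPM in the eluates and 252, 99.2 and 91.2 CPM in the flowthroughs, with ratios of -0.80, 1.36 and 1.42. PUB1, a poly(U)-binding protein of mRNA stability, had -0.84, 0.97 and 1.30, PAR32, of ammonium transport control, -0.93, 1.28 and 1.24, and SEM1, a small subunit of the proteasome lid, -0.85, 0.81 and 1.37. Flowthrough 1 lay below both other flowthroughs in the first 4 of these genes and above both in the other 4. Of 5047 nuclear protein-coding genes whose mean reached 10 CPM, 564 were higher in pair 1 alone and 875 lower in pair 1 alone.

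A trend with coding length was seen in all 3 pairs; it was the one property set against the ratios. Genes were divided by annotated span, introns included, into 5 classes of 1106 or 1107 genes. From the shortest class to the longest the median log2 fold change went -0.65, -0.34, 0.00, 0.32 and 0.94. In pair 1 the medians ran from -0.31 to 0.41, in pair 2 from -0.88 to 1.00 and in pair 3 from -0.77 to 1.36. The order held in every pair. Of 1107 genes in the longest class, which begins at 2121 bases, 408 rose (36.9%) and 0 fell. In the shortest, which ends at 672 bases, 0 rose and 248 fell (22.4%). Spearman's rho between length and ratio over the 5534 genes was 0.598, 0.648 and 0.590 in pairs 1, 2 and 3, and these genes are not independent replicates. As a share of protein-coding counts, the longest class took 19.2%, 22.6% and 28.0% in the eluates and 12.5%, 8.50% and 9.11% in the flowthroughs.

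**Figure D3:**
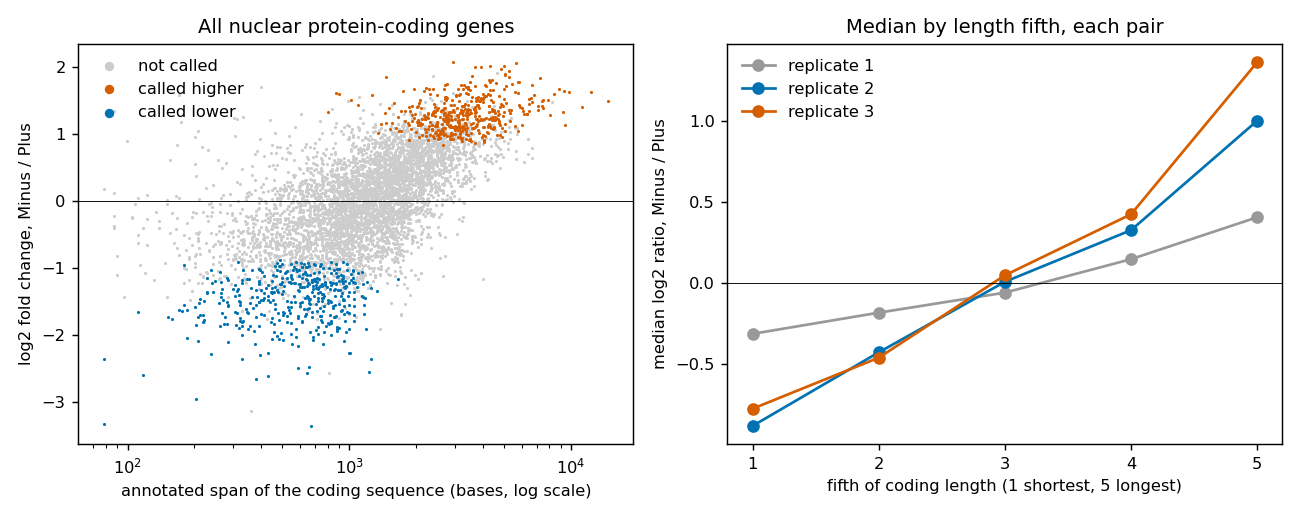
Left, the log2 fold change over all 6 libraries against annotated gene span in bases (log scale), 1 dot a nuclear protein-coding gene, coloured by call. Right, the median log2 ratio in each class of span for pairs 1, 2 and 3; all 3 lines climb, from -0.31 to 0.41 in pair 1, from -0.88 to 1.00 in pair 2 and from -0.77 to 1.36 in pair 3.

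A few called genes went against this trend and were picked out after their values were seen. All 4 genes of the second-shortest class that rose are named: SPP381, a splicing factor, at 29.1, 42.6 and 42.2 CPM in the eluates and 23.5, 6.72 and 6.59 CPM in the flowthroughs, MMS21, a SUMO ligase of DNA repair, at 15.2, 19.5 and 26.1 CPM against 11.7, 7.30 and 5 CPM, SPS18, of sporulation, and YML037C, of no stated function. Each was higher in every eluate than in any flowthrough. The 1 gene of the second-longest class that fell was RPL7A, a large-subunit ribosomal protein whose introns lengthen its span to 1662 bases. It stood at 721, 712 and 595 CPM in the eluates and at 1029, 1866 and 1630 CPM in the flowthroughs.

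With each library's trend over length removed, no feature passed the test (0 of 5519 nuclear protein-coding genes; 1033 at an unadjusted p under 0.05), and the difference in median between the longest and the shortest class went from 1.59 to 0.028. The SDs of the pair ratios became 0.368, 0.766 and 0.986. The ratios of pairs 2 and 3 still correlated at 0.861, while pair 1 had -0.0875 with pair 2 and 0.0158 with pair 3. The genes that ranked highest and lowest in all 3 pairs after the removal are given as a description.

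AAD10, of a family of near-identical aryl-alcohol dehydrogenases that can exchange reads, stood at 21.4, 15.1 and 27.8 CPM in the eluates and at 11.2, 7.42 and 11.1 CPM in the flowthroughs, and its ratios with length removed were 1.12, 1.43 and 1.77. It was not called before removal (adjusted p = 0.0576). Among genes whose mean reached 10 CPM and whose groups did not overlap, it was the only 1 past a 2-fold ratio in every pair after removal, and 0 passed in the other direction. POL4, a DNA polymerase of end joining, stood at 21.2, 21.4 and 35.9 CPM against 10.2, 7.88 and 6.81 CPM. It had 0.90, 1.05 and 1.93 with length removed, and was called before removal (log2 1.65 ± 0.36, adjusted p = 0.0357). EAF7, a subunit of the NuA4 histone acetyltransferase, had 0.89, 1.06 and 1.41. YCR099C, YML037C and YNR066C, none with a role given here, complete the 6. YNR066C had the most even ratios, at 0.86, 0.75 and 0.84.

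At the low end were several abundant messengers. HSC82, the constitutive Hsp90, had ratios of -0.93, -1.14 and -1.35 with length removed, and can exchange reads with its near copy HSP82. PDC1, the pyruvate decarboxylase of fermentation, stood at 7650, 8308 and 9129 CPM in the eluates and at 12346, 13353 and 17472 CPM in the flowthroughs, and had -0.81, -1.01 and -1.31. RPL3, a single-copy large-subunit ribosomal protein gene, stood at 6138, 7984 and 7061 CPM in the eluates and at 11095, 20107 and 30749 CPM in the flowthroughs. Its ratios were -0.77, -1.26 and -2.07 with length removed, and it had fallen before removal (log2 -1.55 ± 0.45, adjusted p = 0.0435). ASP1, the cytosolic asparaginase, stood at 162, 212 and 185 CPM against 290, 466 and 406 CPM, and had -0.75, -1.04 and -1.06. RPS27B and RPL27A complete the 6. Their spans of 799 and 972 bases, used for the removal, include introns.

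**Figure D4:**
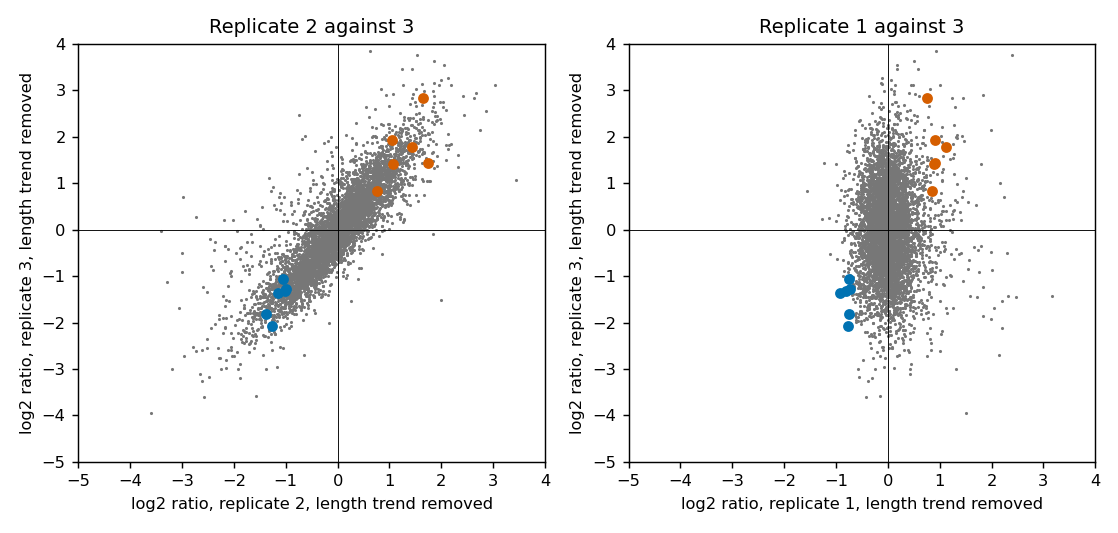
Log2 ratios with the length trend removed, pair 2 (left) and pair 1 (right) against pair 3, 1 dot a nuclear protein-coding gene; the 6 genes highest in all pairs are orange and the 6 lowest blue. Pairs 2 and 3 keep a narrow cloud (r = 0.861) and pairs 1 and 3 none (r = 0.0158), with AAD10 above 1 in every pair.

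Gene groups were then read in order of their role, starting with the ribosome itself. Each group is set against the whole comparison, in which 8.1% of features rose, 7.9% fell and the median log2 fold change was 0.03. Rose and fell are calls of the fit by group alone, and with the replicate block 0 features passed. No group was tested as a set, and with the length trend removed the median of 10 of the 29 groups changed sign. The list of small-subunit ribosomal protein genes leaves out the engineered RPS3, RPS26A and RPS26B, of which RPS3 was above 0 in pair 1. Of its 54 genes 34 fell and 0 rose, and all 54 had ratios below 0 in every pair, including those not called. Their median log2 fold change was -1.23, with -0.68, -1.41 and -1.65 in pairs 1, 2 and 3, and with length removed -0.85. The removal used spans that include introns, so the last value is not corrected for the length of the messengers. RPS28B fell the most, from 786, 4461 and 5569 CPM in the flowthroughs to 529, 557 and 306 CPM in the eluates (log2 -2.96 ± 0.62, adjusted p = 0.0357). RPS12 stood at 2606, 2036 and 1728 CPM in the eluates and at 3627, 14956 and 20149 CPM in the flowthroughs (log2 -2.60 ± 0.58, adjusted p = 0.0357). In both, the flowthroughs of pairs 2 and 3 were far above that of pair 1.

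Assembly factors of the small subunit moved less. Of 15 late 40S factors, RRP12, a HEAT-repeat export factor (log2 1.37 ± 0.31), rose and FAP7, an ATPase that binds Rps14 (-1.33 ± 0.32), fell. TSR2, the chaperone of Rps26, was not called and had ratios of -0.25, 0.15 and 0.39. Of 47 proteins of the SSU processome, which builds the pre-40S particle in the nucleolus, 5 rose and 1 fell, with a median of 0.56. That median was 0.02 in pair 1 and 0.10 with length removed. UTP14 (1.53 ± 0.35) and UTP20 (1.52 ± 0.37) rose and SNU13 (-1.55 ± 0.37), a small protein shared with the spliceosome, fell.

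Translation factors went both ways. Of 36 initiation factors, 4 rose, among them the eIF2 kinase GCN2 (1.53 ± 0.32) and the eIF4G isoform TIF4632 (1.52 ± 0.39), and 5 fell, among them ANB1 (-2.01 ± 0.56), the eIF5A isoform of low oxygen, and CDC33 (-1.42 ± 0.36), the cap-binding eIF4E. The shares of initiation factors called were 11.1% higher and 13.9% lower, against 8.1% and 7.9% of all features. The median of 0.18 covered -0.30, 0.35 and 0.44 in pairs 1, 2 and 3. With length removed the median was 0.02, and GCN2 had 0.22 and CDC33 -0.90. CDC33 stood at 504, 539 and 362 CPM in the eluates and at 743, 1512 and 1507 CPM in the flowthroughs, and GCN2 at 109, 134 and 222 CPM against 58.3, 50.0 and 52.7 CPM. So the kinase was higher and the cap-binding protein lower in every eluate than in any flowthrough. Of 18 elongation, termination and rescue factors, 1 fell, MBF1 (-1.84 ± 0.47), a coactivator that also guards the reading frame, and 0 rose. None of 20 cytosolic tRNA synthetases was called by edgeR (1 at an unadjusted p under 0.05, and 1 called by DESeq2). The most abundant, ILS1 and KRS1, which charge isoleucine and lysine tRNAs, had log2 fold changes of 0.26 ± 0.30 and 0.21 ± 0.30.

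Nuclear complexes came next. Of 34 nuclear pore genes, 9 rose and 1 fell, with a median of 0.65 that was 0.02 in pair 1 and 0.04 with length removed. MLP1 and MLP2, the filament proteins of the nuclear basket, rose by 2.07 ± 0.60 and 1.88 ± 0.42 on the log2 scale, and DYN2, a light chain shared with dynein, fell (-1.10 ± 0.29). MLP1 stood at 193, 197 and 317 CPM in the eluates and at 123, 24.7 and 21.2 CPM in the flowthroughs, so that flowthrough 1 was nearer the eluates than its own group. PSE1 (1.12 ± 0.33), an importer of ribosomal proteins, was the 1 riser of 15 karyopherins, whose median went from 0.62 to -0.32 with length removed. Of 57 chromatin remodelling genes, 14 rose and 1 fell, with a median of 0.74 that was -0.04 in pair 1 and 0.33 with length removed. SNF2, the ATPase of SWI/SNF, stood at 128, 187 and 264 CPM against 75.1, 52.6 and 47.2 CPM (1.73 ± 0.34), ISW2 rose (1.70 ± 0.42), and the small INO80 subunit IES6 fell (-1.33 ± 0.39). Of 59 genes of histone modifying complexes, with a median of 0.54, of 0.03 in pair 1 and of 0.37 with length removed, 10 rose, led by EAF1 (2.08 ± 0.42), the NuA4 platform, and SNT1 (2.01 ± 0.42), of the Set3 deacetylase complex. SWD3 (-1.56 ± 0.42) and SGF11 (-1.31 ± 0.35), small subunits of COMPASS and SAGA, were the 2 that fell. The groups of SWD3 overlapped, with eluate 2 at 63.5 CPM and flowthrough 1 at 62.4 CPM, and its log2 ratio in pair 1 was -0.31.

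DNA repair and checkpoint genes rose in 17 of 68 cases and fell in 2, with a median of 0.71 and pair medians of 0.31, 0.74 and 1.11, and with length removed 0.17. RAD50, the coiled-coil ATPase that tethers broken ends, stood at 45.5, 63.6 and 84.0 CPM in the eluates and at 21.1, 14.6 and 12.3 CPM in the flowthroughs (2.01 ± 0.34). MRC1 (1.74 ± 0.53), the mediator of the replication checkpoint, also rose, while RMI1 (-1.44 ± 0.34), of the Sgs1 complex, and MMS2 (-1.21 ± 0.30), of Lys63 ubiquitin chains, fell. Subunits of RNA polymerases I, II and III had a median of -0.11: 1 of 31 rose, the second-largest subunit RPB2 (1.11 ± 0.29), and 3 small ones fell, led by RPC10 (-1.46 ± 0.32) and RPC11 (-1.03 ± 0.29). Spliceosomal proteins rose in 11 of 56 cases, with PRP8 (1.83 ± 0.33), the core scaffold, and PRP22 (1.60 ± 0.36), a helicase, ahead. 3 fell, with DIB1 (-2.27 ± 0.54) and SMX3 (-1.06 ± 0.32) the lowest. DIB1 did not fall in pair 1 (log2 ratio 0.10), and its groups overlapped. The median of the spliceosomal proteins went from 0.47 to 0.27 with length removed. Of 45 mRNA decay genes, 7 rose, led by SKI2 (1.51 ± 0.33) and NMD2 (1.33 ± 0.30), and 3 fell, led by the small ring proteins LSM6 (-1.86 ± 0.40) and LSM5 (-1.15 ± 0.27). The median of the decay genes went from 0.36 to 0.15 with length removed.

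**Figure D5:**
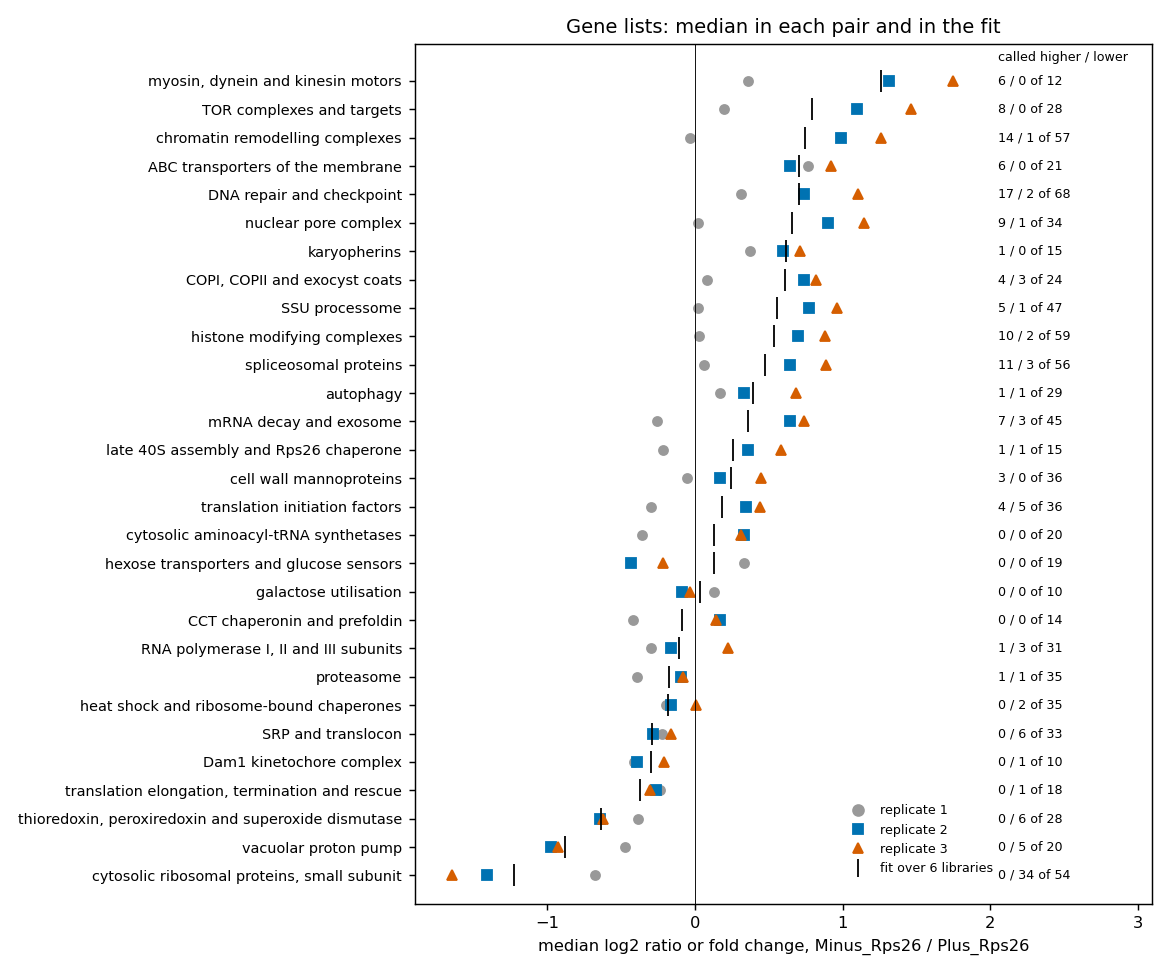
Median log2 ratio of each of the 29 gene groups in pairs 1, 2 and 3 (marks) and the median log2 fold change over all 6 libraries (bar), with the number of genes called higher and lower at the right. Small-subunit ribosomal proteins (median -1.23) lie lowest and the motor proteins (1.26) highest, and the pair 1 mark lies nearer 0 in both.

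In the cytoskeleton and the secretory path, motors stood out in size of change: 6 of 12 myosin, dynein and kinesin genes rose and 0 fell. Their log2 fold changes had a median of 1.26, and MYO1 (1.78 ± 0.52), the myosin of the cytokinetic ring, led. It stood at 121, 90.4 and 190 CPM in the eluates and 76.8, 19.7 and 20.4 CPM in the flowthroughs. With length removed the median of the motors was 0.23. Of 10 genes of the Dam1 complex, which couples chromosomes to microtubules and has mostly small subunits, 1 fell, DAD1 (-2.11 ± 0.49), and 0 rose. Vesicle coat and exocyst genes were mixed: 4 of 24 rose, with SEC16 (1.55 ± 0.41) and SEC3 (1.52 ± 0.30) ahead, and 3 fell, with the GTPase SAR1 (-1.53 ± 0.35) and the coatomer subunit RET3 (-1.51 ± 0.34) lowest. Of 33 genes of the signal recognition particle, the translocon and its enzymes, 6 fell and 0 rose, led by the signal peptidase subunit SEC11 (-2.07 ± 0.50) and the glycosylation subunit OST6 (-1.9 ± 0.44). SEC11 stood at 53.6, 39.0 and 29.7 CPM in the eluates and at 54.3, 198 and 259 CPM in the flowthroughs, and so hardly differed in pair 1.

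Membrane pumps went both ways. Of 21 ABC transporters, 6 rose and 0 fell, 20 of the 21 had ratios above 0 in every pair, and pair 1, with a median of 0.76, was no smaller than pair 2, with 0.64. NFT1 (1.38 ± 0.40) and SNQ2 (1.36 ± 0.34), the latter a drug efflux pump, led. With length removed the median of the group was -0.32. Of 20 genes of the vacuolar proton pump, 5 fell and 0 rose, led by the proteolipid subunits VMA16 (-2.56 ± 0.57) and VMA3 (-2.05 ± 0.46). VMA3 stood at 614, 578 and 518 CPM in the eluates and at 868, 3065 and 3168 CPM in the flowthroughs. With length removed the median of the pump genes stayed below 0, at -0.49.

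Thioredoxin, peroxiredoxin and superoxide dismutase genes fell in 6 of 28 cases and rose in 0. Their median span was 601.5 bases, and their median log2 fold change of -0.64 went to -0.16 with length removed. SOD1 (-1.61 ± 0.35), the copper-zinc dismutase, stood at 389, 302 and 232 CPM in the eluates and at 608, 1108 and 1105 CPM in the flowthroughs, and GRX4 (-1.59 ± 0.41), an iron-sensing glutaredoxin, also fell. Both cytosolic thioredoxins, TRX1 and TRX2, were among the 6. Of 35 heat shock and ribosome-bound chaperone genes, HSP10 (-1.79 ± 0.37), the mitochondrial co-chaperonin, and EGD1 (-1.02 ± 0.28), of the nascent-chain complex, fell. Proteasome genes had 1 riser, RPN2 (0.97 ± 0.28), and 1 that fell, PRE3 (-1.39 ± 0.40), of 35. PRE3 did not fall in pair 1 (log2 ratio 0.045), and its groups overlapped. None of 14 chaperonin CCT and prefoldin genes was called by edgeR (3 at an unadjusted p under 0.05), against 2 by DESeq2. CCT5 has an adjusted p of 0.00997 in the authors' deposited table. The most abundant, TCP1 and CCT5, had -0.68 ± 0.32 and -1.04 ± 0.34 in the edgeR fit (adjusted p = 0.148 and 0.0561).

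Genes of the carbon shift itself were not called by edgeR. None of 19 tested hexose transporter and glucose sensor genes passed (5 at an unadjusted p under 0.05, 3 called by DESeq2), and none of 10 galactose genes did (3 and 1). The authors' deposited table lists GAL11 at an adjusted p of 0.0322. HXT3, a glucose transporter, stood at 602, 465 and 760 CPM in the eluates and at 418, 512 and 1233 CPM in the flowthroughs, and the groups overlapped. HXK2, the main hexokinase, had -0.62 ± 0.30 (adjusted p = 0.156). GAL11, a Mediator subunit, had 1.05 ± 0.36 (adjusted p = 0.0645) and PGM2, phosphoglucomutase, -0.56 ± 0.37 (adjusted p = 0.286). Of 28 genes of the TOR complexes and their targets, 8 rose and 0 fell, with pair medians of 0.20, 1.09 and 1.46. Their median log2 fold change of 0.79 went to 0.24 with length removed. TOR2 and IFH1 (1.43 ± 0.32), the coactivator of ribosomal protein genes, led. Of 29 autophagy genes, ATG11 (1.5 ± 0.33), a scaffold, rose and ATG5 (-1.91 ± 0.43), of the lipid conjugation machinery, fell. Cell wall mannoproteins had 3 risers of 36 tested, TIR4 (1.86 ± 0.44), SAG1 (1.67 ± 0.43), the agglutinin of alpha cells, and FIG2.

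The authors' own comparison covered the same 2 classes of ribosome. The authors' deposited table lists 5896 features, of which 1610 have an adjusted p under 0.05, 742 above 0 and 868 below. In the authors' deposited table the sign was read as eluate over flowthrough, because 5368 of the 5547 features in both had that sign here. All 876 features called here that have an adjusted p in the authors' deposited table were called there too, with the same sign. That table comes from the same series and its sign was read from this fit, so the match is no independent check.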

How the data were processed

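The 6 libraries of 1 strain were used. The authors deposited raw counts per feature (6341 features and 5 closing lines a library, which were dropped); the submitters' processing notes name TopHat2 2.0.9, the build sacCer3, DESeq and DESeq2. What program counted the reads, and whether by strand, is not given in the sources used here; reads of overlapping or antisense partners are therefore uncertain. The kit was stranded total RNA after ribosomal RNA depletion, per the labels' protocols. The authors' deposited table gives log2 fold changes and adjusted p-values. Reads in no feature were 4.59% to 7.48% of those counted, ambiguous or in no feature. The closing line for alignments that were not unique was 0 in replicate 3 of both groups and 11530659 to 18980582 elsewhere, so such reads were listed or handled differently in replicate 3. Names were matched to RefSeq R64 (6098 features matched, 243 not).

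Counts were tested with edgeR 4.0.16 (R 4.3.3): trimmed-mean scaling, the default filter on low counts, the quasi-likelihood test, Benjamini-Hochberg adjustment over 5668 features at 0.05, group alone. Each standard error is the log2 fold change over the root of its F value. Pair ratios are differences of scaled log2 CPM (prior count 2). The length trend was a lowess curve (span 0.3) on log span in each library. It was fitted to log2 CPM less each gene's mean over the libraries. The script was checked on simulated counts. It recovered 10% of simulated 2-fold changes and 85% of 4-fold changes, with 0 false calls. Genes that were not called may therefore still differ. The simulated libraries were independent, with no shared lysate, length trend or diverging pair. The 0 false calls thus do not carry over to these data.

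Eluate and flowthrough of 1 number were paired for the ratios and the block, since the protocol takes both from 1 lysate. The main test, by group alone, ignored the pairing, and so did its calls, standard errors and adjusted p-values. Once group means were subtracted, libraries of the same number correlated at -0.20, 0.41 and 0.01. The description of flowthrough 2 numbers it 1, against 2 in its title; the title was followed. The series describes biological replicates, and libraries within a group differed far beyond counting noise (chi-square of 153 to 619 for each degree of freedom).

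The comparison, the 29 gene lists and the rules for naming genes were chosen with earlier results of these data known. Named were the engineered genes, the 10 highest and 10 lowest by pair ratio, the 4 most opposed between pair 1 and the others in each sense, the 6 highest and 6 lowest with length removed, and in each list up to 2 called in each direction or, with none called, the 2 most abundant. The genes named by pair ratio, as opposed, or with length removed had a mean of at least 10 CPM, and all but the opposed genes had groups that did not overlap. Genes against the length trend and those picked by role from the 45 were chosen after their values were seen. DESeq2 1.42.0, limma-voom 3.58.1, other scaling, no filter, nuclear protein-coding genes alone, the replicate block, length removal and each library or pair left out were the alternatives.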

Additional observations from a re-analysis of the deposited data

How the results depend on the processing

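With the replicate number as a block, 0 features were called against 907 without it, and no named gene kept its call. The shared number was taken to mean a shared lysate, but the deviations of same-numbered libraries did not move together in every pair. Other choices gave 1552 calls with DESeq2 (700 higher, 852 lower), 1042 higher and 37 lower with scaling to total counts, 0 with the length trend removed, and 0 with the trend removed and the block. Leaving out both libraries of a replicate gave 0 to 2671 calls (0 to 1387 higher, 0 to 1284 lower), and leaving out 1 library gave 0 to 2495 (0 to 1272 higher, 0 to 1223 lower); all 907 were among the 2671 without pair 1. With DESeq2's size factors (960), nuclear protein-coding genes alone (1136), no filter (893) and limma-voom (822) the count stayed within 1.5 times. Trend removal in the pair ratios, and all alternatives for the length classes, were chosen after seeing the data; the difference between the longest and shortest class was 1.59, and 0.028 with the trend removed or 0.033 with the block as well, as the removal is built to do.

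Of 111 named genes 11 changed sign with the trend removed and 9 with total counts, and of 29 list medians 10 and 8 did. The cause of these sign changes was not tested. With the trend removed, and with the block as well, MDN1 went to -0.30 and -0.31, IRA1 to -0.012 and -0.0057, TOR2 to -0.032 and -0.011, DYN1 to -0.14 and -0.15, SSK2 to -0.032 and -0.021, IRA2 to -0.29 and -0.27, UTP20 to -0.014 and -0.0018, ILS1 to -0.75 and -0.72, and KRS1 to -0.13 and -0.13. URA3 went to 0.23 and 0.36, and RPS3 to 0.13 with both. NSP1 went to -0.21 with the trend removed. With total counts URA3 went to 0.78, TCP1 to 0.17, HXT3 to 0.66, HXK2 to 0.16, PGM2 to 0.31, HSC82 to 0.18, GEF1 to 0.31, MEP1 to 0.44 and PDC1 to 0.012. Without replicate 3 URA3 was 0.47 and HXT3 0.20, without flowthrough 3 they were 0.49 and 0.35, and without eluate 2 URA3 was 0.094; the other ends of these ranges were -0.59 for URA3 and -0.58 for HXT3, without flowthrough 1. Relative to all features, the median of the initiation factors went to -0.053 without replicate 3, and ran from -0.057 without flowthrough 3 to 0.27 without flowthrough 1. With length removed, and with the block as well, the coats went to -0.22 and -0.23, the signal recognition particle and translocon to 0.014 and 0.024, and the ABC transporters to -0.32 and -0.29. The RNA polymerases went to 0.0044 with length removed and ran from -0.25 without flowthrough 3 to 0.10 without flowthrough 1. Of the medians with few or no calls, length removal turned the karyopherins to -0.32, the tRNA synthetases to -0.41, the hexose genes to -0.37, the galactose genes to -0.049, the Dam1 complex to 0.27 and CCT and prefoldin to 0.066. With total counts the medians of elongation factors, RNA polymerases, the proteasome, CCT, heat shock, redox, Dam1 and translocon genes were above 0 but below that of all features, 0.75. Depth limits RPS26B, SPS18 and TIR4, all with means below 10 CPM. Spans include introns, which places ribosomal protein genes in longer classes than their messengers would.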
